A study of Mus musculus with 2 samples.

Results

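The 50 genes described here, apart from Psmc3ip, encode subunits, activators, an inhibitor and assembly chaperones of the mouse proteasome. They are the protein-coding Ensembl genes whose symbol begins with Psma, Psmb, Psmc, Psmd, Psme, Psmf or Psmg followed by a digit, and they were drawn from 21474 protein-coding genes in the tables. The rule matched 54 rows, of which 4 are pseudogenes and were not counted as members. The study measured total RNA by sequencing in 2 libraries of primary cells labelled megakaryocyte progenitor (CFU-Meg, the colony-forming progenitor of the cells that shed platelets). Both came from male C57BL/6J mice aged 5 to 6 weeks, each was begun with 1 ng of RNA, and the labels name no treatment, transgene or deletion. The labels assign both libraries to a single group under the same donor identifier, although to separate biosamples, so there is no contrast between conditions, and the spread between the libraries need not be the spread between animals. Values are TPM (a relative transcript level per unit of length, with the same total in each library) as mean ± SD over the 2 libraries unless stated otherwise.

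The proteasome is the protease that degrades proteins tagged with ubiquitin. Its 20S core is a barrel of stacked rings: outer alpha rings control entry, and inner beta rings hold the catalytic sites. The 19S regulatory particle caps the barrel. Its base unfolds substrates with a ring of ATPases, and its lid removes ubiquitin. Blood cells can replace the constitutive catalytic subunits Psmb5, Psmb6 and Psmb7 with the immunoproteasome subunits Psmb8, Psmb9 and Psmb10, which favour peptides suited to MHC class I presentation, and interferon gamma is the best known inducer of that exchange.

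The label was checked against lineage markers before the members were read. Of 12 megakaryocyte markers, 2 reached 1 TPM in both libraries (Itga2b at 2.41 TPM and Vwf at 1.04 TPM), and the platelet tubulin Tubb1 was at 0, whereas all 10 granulocyte markers did, with a median of 1504 TPM. The summed level was 12.03 and 7.32 TPM for the megakaryocyte markers and 16784 and 17748 TPM for the granulocyte markers in replicates 1 and 2. The monocyte and macrophage markers summed to 2989 and 3410 TPM, with 8 of 10 at 1 TPM or more in both. Most of that sum was Ly6c2, at 2767 and 3120 TPM, and the median of these markers was 15.9 TPM. The erythroid markers summed to 711 and 395 TPM (8 of 10), of which Car1 made up 512 and 242 TPM, and their median was 8.03 TPM. By reads, 4 erythroid markers were higher and 6 lower in replicate 2. The dendritic cell markers summed to 53.2 and 74.4 TPM (5 of 10) and the B cell markers to 27.8 and 45.7 TPM (2 of 8, with Pax5 and Ms4a1 among those at 0). The T and NK cell markers summed to 2.37 and 1.37 TPM, none of 8 reached 1 TPM in both, and Cd3e, Cd3g and Cd8a were at 0. The members' values are therefore given for the libraries labelled CFU-Meg, and the part of any of these cell types in them was not tested. Replicate 1 held 82746658 and replicate 2 held 75652762 expected counts, of which 50.2% and 49.6% lay in mitochondrial genes and Gm42418.

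The catalytic subunits are made as precursors, and the first residue of the mature protein, a threonine, is the active-site nucleophile. The coding bases around that codon (GENCODE M21, GRCm38, 5′ to 3′ on the coding strand) are shown for the 3 constitutive subunits and the 3 immunoproteasome subunits that replace them, because their reads are compared below. The capitals mark the threonine codon, with 9 bases before it and 33 after it.
Psmb5 (Psmb5-201, chromosome 14): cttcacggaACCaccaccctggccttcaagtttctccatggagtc
Psmb8 (Psmb8-201, chromosome 17): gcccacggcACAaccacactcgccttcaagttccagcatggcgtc
Psmb6 (Psmb6-201, chromosome 11): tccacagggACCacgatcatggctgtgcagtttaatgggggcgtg
Psmb9 (Psmb9-204, chromosome 17): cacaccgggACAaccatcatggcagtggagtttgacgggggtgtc
Psmb7 (Psmb7-201, chromosome 2): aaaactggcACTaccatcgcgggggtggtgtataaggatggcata
Psmb10 (Psmb10-201, chromosome 8): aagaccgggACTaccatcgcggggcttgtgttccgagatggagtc
Within these 45 bases, Psmb8 and Psmb5 shared 34 bases, Psmb9 and Psmb6 shared 34, and Psmb10 and Psmb7 shared 32. Over the whole coding sequence, identity was 68.9% for Psmb8 and Psmb5, 67.3% for Psmb9 and Psmb6 and 64.6% for Psmb10 and Psmb7. The longest run of identical bases in any of these pairs was 18, in Psmb8 and Psmb5.

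Transcripts of 49 of the 50 members reached 1 TPM or more in both libraries, against 46.2% of all protein-coding genes. The exception was Psmb11. By mean level, 14 members stood at 100 TPM or more, 33 between 10 and 100 TPM and 2 between 1 and 10 TPM. The median member had 48.4 TPM (52.3 in replicate 1 and 46.7 in replicate 2), where the median protein-coding gene had 0.59 TPM and the median of those at 1 TPM or more in both had 11.6 TPM. The members drew 243251 expected counts in replicate 1 and 228970 in replicate 2, and in replicate 1 single members above 0 ranged from 239 (Psma8) to 16812 (Psme1). Of the 50 members, 36 lay above percentile 90 of protein-coding genes. Together the members took 0.369% ± 0.002 of all TPM, or 0.808% ± 0.002 when mitochondrial genes, small RNAs, spike-ins and Gm42418 were set aside. In bulk RNA of this kind, fewer cells of a type and less RNA per cell cannot be told apart.

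**Figure D1:**
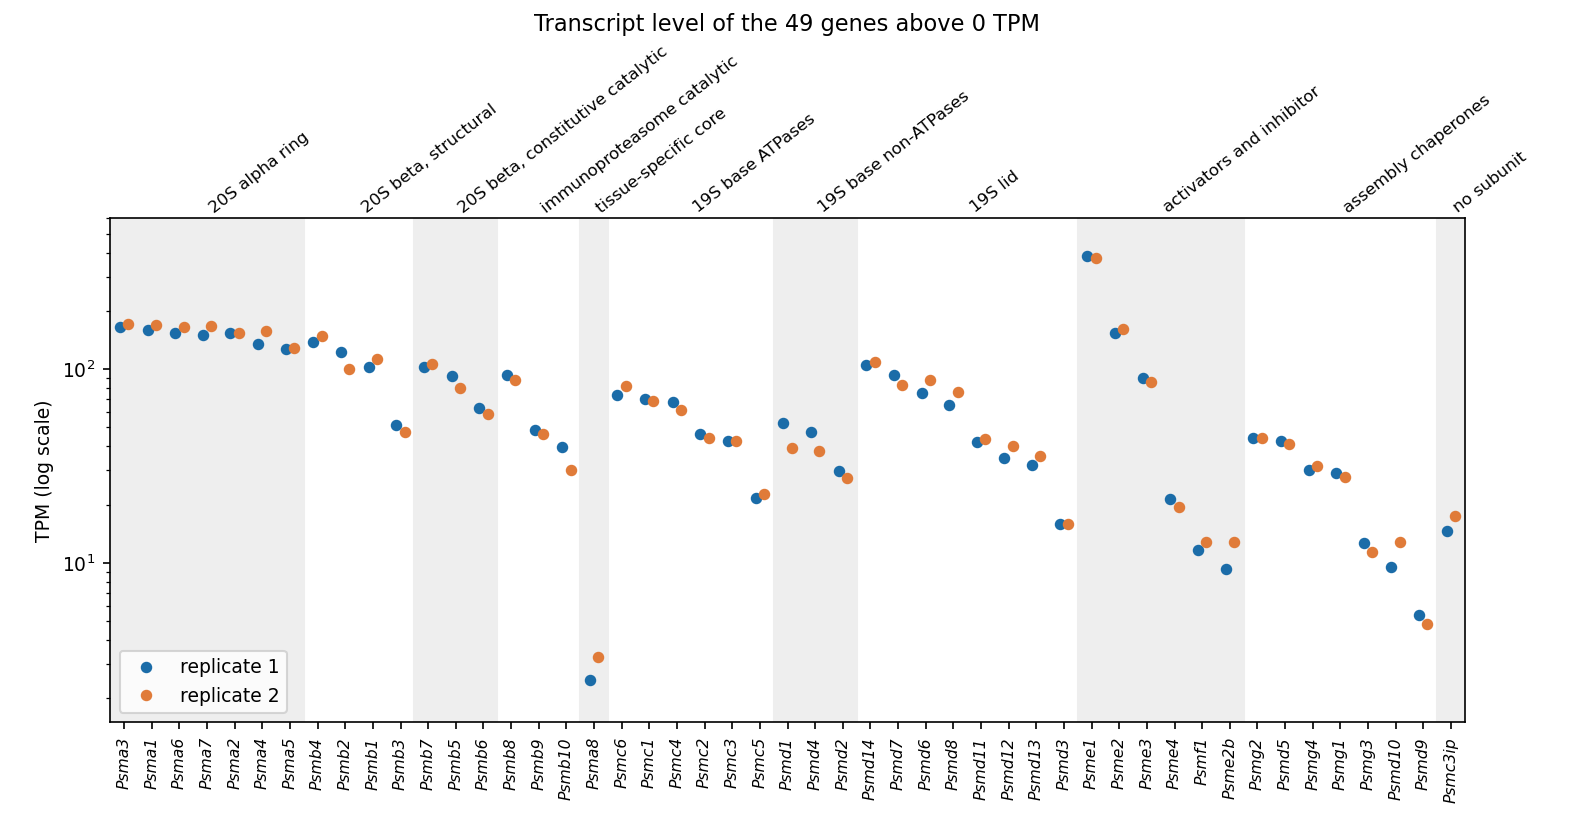
TPM on a log scale (vertical axis) of the 49 members above 0 TPM in replicate 1 (blue) and replicate 2 (orange), grouped by role along the horizontal axis and ordered by mean within each group. The 7 alpha ring genes form a level row between 127 and 170 TPM, Psme1 stands above all others, and Psma8 is the lowest.

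The 7 alpha ring genes had the highest group median among the particles' parts, 158 TPM, and differed little among themselves. Psma3 was the highest, with 165 TPM in replicate 1 and 170 TPM in replicate 2. Psma5 was the lowest, with 127 and 129 TPM. The highest mean was 1.31 times the lowest, and the SD of log2 TPM over the 7 genes was 0.13. The other alpha subunits lay between them: Psma1 had 160 and 168 TPM, Psma2 had 154 and 154 TPM, and Psma6 had 153 and 165 TPM. Psma7 had 151 and 166 TPM. Psma4 had 134 TPM in replicate 1 and 158 TPM in replicate 2. Neighbours in the order of means overlapped in their libraries' values, apart from Psma5, which was below the other 6 in both libraries. The place of Psma3 depended on the transcripts counted: with protein-coding transcripts only it had 119 and 120 TPM, below the 127 and 129 TPM of Psma5 and the lowest of the 7. Reads per longest protein-coding transcript also put Psma3 lowest, but this rank rests on the divisor. That transcript, Psma3-202, has 2846 bases and held 3.37% of the gene's TPM. The leading Psma3-204 has 859 bases and held 67.8%.

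The 4 structural beta genes spread more widely, from 49.6 to 144 TPM. Psmb4, the last beta subunit to join during assembly of the human core, had 138 and 149 TPM, or 90.9 and 99.2 TPM with protein-coding transcripts only. Psmb2 had 123 TPM in replicate 1 and 99.7 TPM in replicate 2, and Psmb1 had 102 and 112 TPM, so the order of Psmb1 and Psmb2 changed between the libraries. Psmb3 was the lowest constitutive core gene, with 51.8 and 47.4 TPM. Although each core particle holds equal numbers of every alpha and beta subunit, transcript levels of the 14 constitutive core genes thus spanned a 3.38-fold range, and the SD of log2 TPM was 0.54 over the 7 beta genes.

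The comparison between each immunoproteasome gene and the constitutive gene it replaces gave a different result for each of the 3 pairs. Psmb8, the chymotrypsin-like immunosubunit (chromosome 17, 34197721 to 34201454), had 92.7 TPM in replicate 1 and 87.9 TPM in replicate 2. Psmb5, its constitutive counterpart (chromosome 14, 54614119 to 54618022), had 92.6 and 79.9 TPM. The log2 ratio of Psmb8 to Psmb5 was 0.00 in replicate 1 and 0.14 in replicate 2 (mean 0.07 ± 0.10), so the levels of the pair did not differ beyond the spread between libraries.

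Psmb9 (chromosome 17, 34181987 to 34187764), which replaces the caspase-like subunit, had 48.5 TPM in replicate 1 and 46.0 TPM in replicate 2. Psmb6 (chromosome 11, 70525367 to 70527858) had 62.8 and 58.7 TPM. The log2 ratio was -0.37 and -0.35 (mean -0.36 ± 0.01), so Psmb9 was the lower of the pair in both libraries. Its size depended on how reads were divided by length: the transcript with the largest deposited share of Psmb9 is Psmb9-202, annotated at 433 bases, whereas the full-length Psmb9-204 has 1351 bases. When reads were divided by the longest protein-coding transcript instead, the mean log2 ratio of Psmb9 to Psmb6 was -1.26.

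Psmb10 (chromosome 8, 105935735 to 105938444), which replaces the trypsin-like subunit, had 39.8 TPM in replicate 1 and 30.3 TPM in replicate 2. Psmb7 (chromosome 2, 38588036 to 38644087) had 103 and 106 TPM. The log2 ratio was -1.36 and -1.81 (mean -1.59 ± 0.32), the widest gap of the 3 pairs in both libraries on TPM, and -1.57 with reads per longest transcript. All 3 immunoproteasome genes together made up 41.2% and 40.1% of the summed TPM of the 6 catalytic genes (mean 40.7% ± 0.8), and 36.8% with reads per longest transcript. Each ratio is a paired value within a library. Over 2 such values an exact two-sided sign-flip permutation test cannot give a p below 0.5, so no test of these ratios was made.

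**Figure D2:**
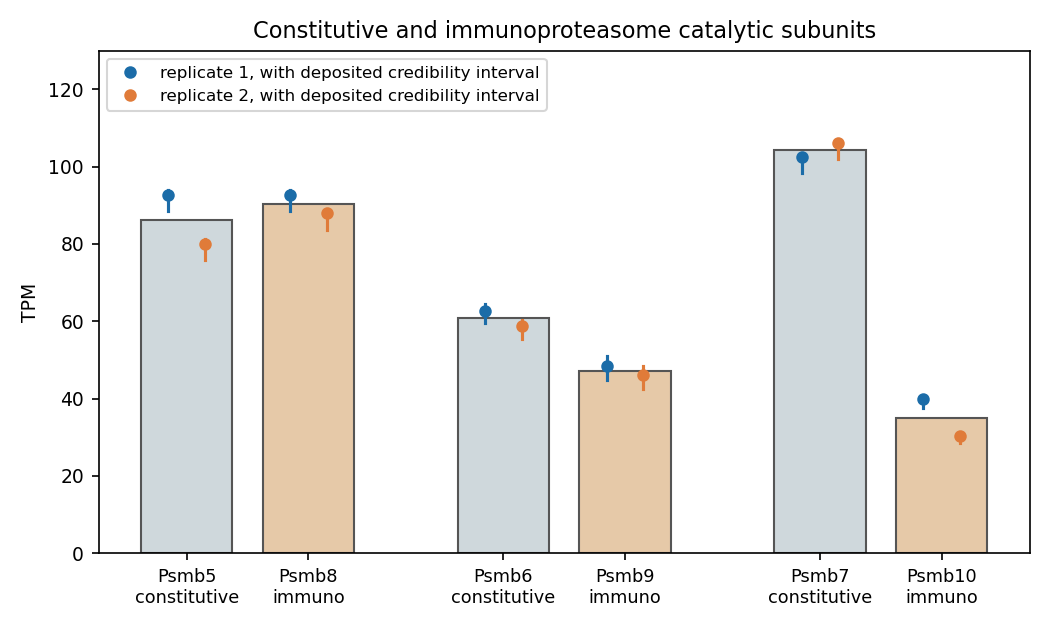
TPM (vertical axis, from 0) of the 3 constitutive catalytic genes and the immunoproteasome gene that replaces each. Bars are means of the 2 libraries, points are single libraries, and lines are the deposited credibility intervals, which belong to the posterior mean; Psmb8 stands level with Psmb5, Psmb9 below Psmb6, and Psmb10 at 35.0 TPM against 104 TPM for Psmb7.

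The pairs also differed between the libraries in reads. The odds of a Psmb10 read against a Psmb7 read were lower in replicate 2, with a log2 odds ratio of -0.45 (95% interval from read counts -0.54 to -0.35). For Psmb8 against Psmb5 they were higher in replicate 2, at 0.19 (0.11 to 0.27). For Psmb9 against Psmb6 the value was -0.09, with an interval of -0.22 to 0.04 that includes 0. These intervals cover counting error only and compare the libraries, not conditions.

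Core subunits of other tissues were low or not detected. Psmb11, the thymus-specific catalytic subunit, drew no reads at all. Its count of 0 leaves room for a level of at most 0.0118 TPM in the first library and 0.0127 TPM in the second. It is the neighbour of Psmb5 on chromosome 14, on the opposite strand with starts 3411 bases apart, and Psmb5 stood at 86.3 ± 9.0 TPM. Psma8, the testis form of Psma7, had 2.47 and 3.27 TPM, from 239 and 294 expected counts. Psma7 was 61.0 and 50.9 times as high as Psma8 in replicates 1 and 2 on the TPM scale. Their coding sequences are 74.9% identical, with no shared run longer than 17 bases. The pseudogenes Psmb5-ps, Psmb6-ps, Psmb6-ps2 and Psmb7-ps2 were listed with no reads. Division of reads can leave a near-identical copy at 0, so this sets no limit on them.

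Genes of the 19S particle were lower than those of the core. The median of the 17 measured 19S genes was 45.1 TPM, against 136 TPM for the 14 constitutive core genes, and the ratio of the medians was 2.75 in replicate 1 and 3.17 in replicate 2 (mean 2.96 ± 0.30). The ratio was 2.71 when reads were divided by the longest protein-coding transcript and 2.68 with protein-coding transcripts only. The ranges overlapped, because 7 of the 19S genes had a mean above that of Psmb3, the lowest core gene.

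Among the 6 ATPases of the base, Psmc6 was the highest, with 73.4 TPM in replicate 1 and 81.9 TPM in replicate 2. Psmc1 had 69.7 and 68.6 TPM and Psmc4 had 67.5 and 61.3 TPM. Psmc2 followed at 46.2 and 43.95 TPM, and Psmc3 at 42.7 and 42.3 TPM. Psmc5 was the lowest, at 21.6 and 22.7 TPM, and Psmc6 was 3.50 ± 0.14 times as high. The subunits form a ring with a copy of each, and the order Psmc6, then Psmc1, Psmc4, Psmc2, Psmc3 and Psmc5 held in both libraries. The gap between Psmc4 and Psmc2 depended on the transcripts counted. With protein-coding transcripts only, Psmc4 had 50.5 and 46.2 TPM and Psmc2 had 45.75 and 43.4 TPM.

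The other base genes are scaffolds and ubiquitin receptors. Psmd1, the scaffold that binds the ubiquitin receptor Adrm1, had 52.9 TPM in replicate 1 and 39.1 TPM in replicate 2. Psmd2, its companion scaffold, had 29.8 and 27.4 TPM. Psmd4, itself a ubiquitin receptor, had 47.5 and 37.9 TPM. All 3 were lower in replicate 2 on the TPM scale, but with protein-coding transcripts only Psmd1 had 28.2 TPM in the first library and 30.1 TPM in the second.

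The 8 lid genes in the tables under these symbols spanned the widest range within a part of the particle, 6.74-fold, with an SD of log2 TPM of 0.92. Psmd14, the metalloprotease that cuts ubiquitin chains off substrates, was the highest, at 105 TPM in replicate 1 and 109 TPM in replicate 2. Psmd7, its catalytically inactive partner, had 92.7 and 82.4 TPM. With protein-coding transcripts only, Psmd14 had 71.2 and 76.6 TPM and Psmd7 kept its values, so Psmd7 was then the higher, as it also was by mean reads per longest transcript. Psmd3 was the lowest, at 15.9 and 15.8 TPM, and Psmd14 was 6.74 ± 0.21 times as high. The scaffold subunits Psmd6 and Psmd8 had 75.2 and 87.8 TPM and 65.6 and 76.0 TPM. Psmd11 had 42.2 and 43.8 TPM, Psmd12 had 34.7 and 39.9 TPM, and Psmd13 had 31.9 and 35.8 TPM. Across the 31 constitutive core and 19S genes the SD of log2 TPM was 0.92, about that of the lid alone, where protein-coding genes at 1 TPM or more had 1.87.

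The activators held the highest gene of all members. Psme1, which with Psme2 forms the interferon-inducible PA28 cap that opens the core without ATP, had 383 TPM in replicate 1 and 374 TPM in replicate 2 (chromosome 14, 55578123 to 55581529). Psme2, on the same chromosome 5912 bases away (55587441 to 55591113), had 154 and 161 TPM. Psme1 was thus 2.41 ± 0.12 times as high as Psme2, and 2.26 ± 0.09 times as high as Psma3, the highest core gene. Psme1 remained the highest member with protein-coding transcripts only, at 210 ± 10.49 TPM, where its ratio to Psme2 was 1.90. The highest core gene was then Psma1, at 161 TPM, and the ratio of Psme1 to it was 1.31 ± 0.12.

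Psme3, whose product forms the nuclear PA28 cap, had 90.4 and 86.1 TPM, and Psme4, the large activator PA200, had 21.2 and 19.4 TPM. Psmf1, an inhibitor of the core, had 11.6 and 12.8 TPM. Psme2b, a copy of Psme2 that shares 98.1% of its coding bases, had 9.33 TPM in the first library and 12.9 TPM in the second. The longest run of identical bases in the pair is 264, so their reads are shared out by estimate, and the value of Psme2b is uncertain. The deposited posterior SD of its count was 2.06% and 1.56% of the count, the largest among members at 1 TPM or more.

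Assembly chaperones had the lowest median among the widely expressed groups, 28.5 TPM. The core chaperones Psmg2 and Psmg1, which work as a pair on the alpha ring, had 44.3 and 43.9 TPM and 29.1 and 27.8 TPM. Psmg4 had 30.1 and 31.5 TPM and its partner Psmg3 had 12.7 and 11.3 TPM. The base chaperones Psmd5, Psmd10 and Psmd9 had 42.6 and 41.1 TPM, 9.57 and 12.8 TPM, and 5.38 and 4.83 TPM. Psmc3ip also meets the symbol rule, although its product acts in meiotic recombination and is no proteasome subunit, and it had 14.6 and 17.5 TPM.

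The deposited transcript tables list 224 transcripts for the members. The leading transcript was the same in both libraries for all 49 expressed members, was annotated protein-coding in each of them, and held more than 90% of the gene's TPM in 27. It held under 50% in 3: Psmc3 (46.4% in Psmc3-202), Psmd4 (42.1% in Psmd4-206) and Psme2 (37.6% in Psme2-201). Transcripts annotated protein-coding took under 75% of TPM in 7 of the 45 members at 10 TPM or more in both libraries (15.6%), a share that was 24.1% among 5183 protein-coding genes at that level.

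Psme1 had the largest share outside protein-coding transcripts. A transcript of 439 bases, annotated as a target of nonsense-mediated decay, took 36.5% of its TPM in replicate 1 and 41.7% in replicate 2. In Psme2 and Psmb4, transcripts with a retained intron took 29.7% ± 0.5 and 33.8% ± 0.7. In Psma3, transcripts annotated for nonsense-mediated decay took 18.6% ± 0.4 and in Psmd13 19.5% ± 1.4. Processed transcripts, which lack an open reading frame in the annotation, took 30.8% ± 1.7 in Psmd14. Psmd1 differed most between libraries: its protein-coding Psmd1-201 took 53.3% in replicate 1 and 76.9% in replicate 2, and a retained-intron transcript of 586 bases took 14.4% and 0%. Its TPM was lower in replicate 2, while the log2 ratio of its reads was -0.02, and the part of the transcript mix in that was not tested. Short transcripts weigh heavily in TPM, since a read in a short transcript counts for more than a read in a long one.

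**Figure D3:**
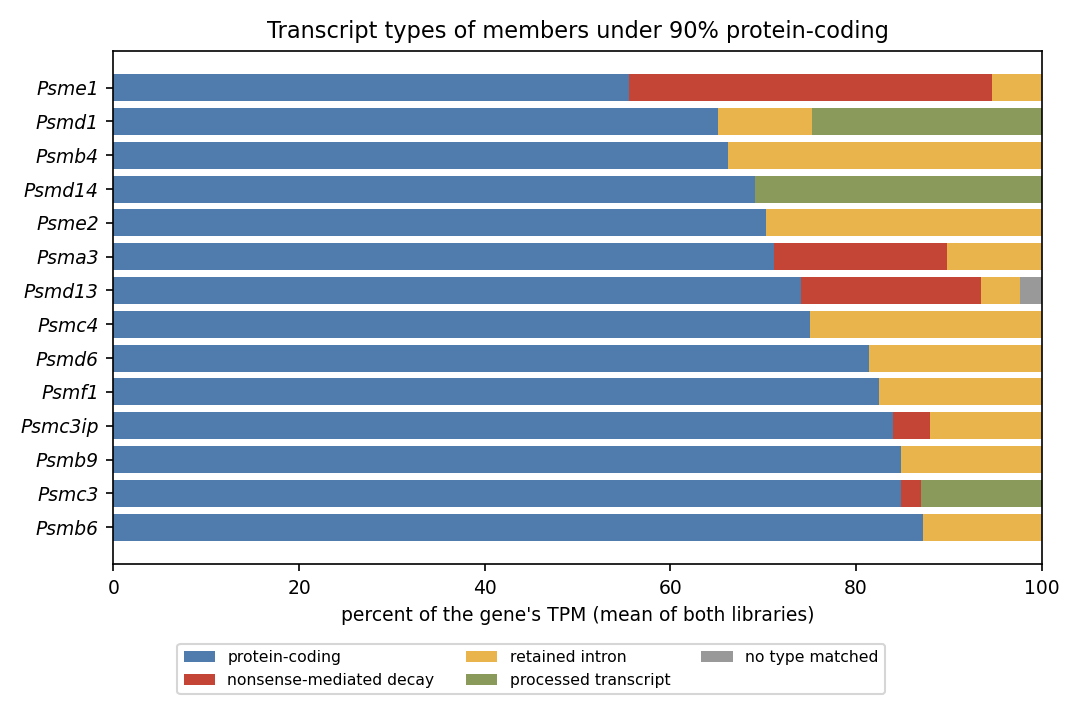
Percent of each gene's TPM (horizontal axis, mean of both libraries) by annotated transcript type for the 14 expressed members with under 90% in protein-coding transcripts. Psme1 has the smallest protein-coding share, 55.5%, and nonsense-mediated decay transcripts take most of the rest.

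Between the libraries, no member passed both limits of the call (an adjusted p under 0.05 together with reads that differ by 1 or more on the log2 scale), by an exact binomial test with Benjamini-Hochberg adjustment over 14304 genes. That is 0 of 49 members tested, where 7.66% of all genes tested were called. Calls were rare at the members' levels, with 2 of 662 genes called at 100 TPM or more and 33 of 5102 between 10 and 100 TPM, so the 0 sets the members apart from no other genes of like level. DESeq2 size factors also gave 0 members, with 1096 of all 14304 genes called. By the adjusted p alone, 31 of 49 differed, near the 59.0% of all genes tested. The test compares the reads of these libraries, in which even small ratios of abundant genes pass, and says nothing of a condition. The median log2 ratio of replicate 2 to replicate 1 was 0.05 over the members, with 33 higher and 16 lower, against 0.00 over all genes tested. Genes of like level were nearer to the members. At 100 TPM or more the median was 0.12 over the members and 0.09 over the genes tested. Between 10 and 100 TPM it was 0.02 over each.

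The largest ratios of reads belonged to low members. Psme2b had a log2 ratio of 0.51 (adjusted p = 3.4e-07 by the exact binomial test), Psmd10 had 0.46 (adjusted p = 3.4e-10) and Psma8 had 0.44 (adjusted p = 9.3e-04). At the other end stood Psmb10 at -0.35 (adjusted p = 1.1e-15), Psmd4 at -0.27 and Psmb2 at -0.26. All 7 alpha genes were higher in replicate 2, by 0.05 to 0.29 on the log2 scale, with a median of 0.12, where the 662 tested genes at 100 TPM or more had a median of 0.09. Of the 47 members at 10 TPM or more, 39 (83.0%) lay within 0.25 of 0, and so did 82.0% of 5416 protein-coding genes at that level.

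**Figure D4:**
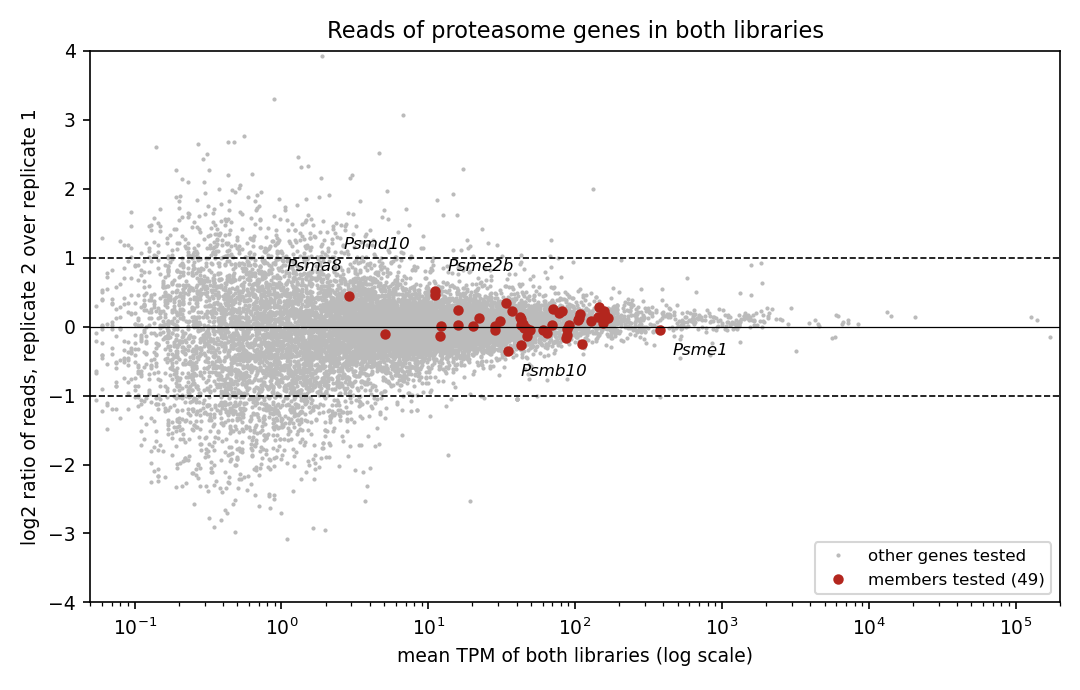
Log2 ratio of scaled reads in replicate 2 over replicate 1 (vertical axis) against mean TPM (log scale, horizontal axis) for the 49 members tested (red) and the other genes tested (grey), with 21 of the tested genes outside the axes. Dashed lines mark a log2 ratio of 1 and -1, and all members lie between them, from -0.35 for Psmb10 to 0.51 for Psme2b.

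Promoter sequences were available for 42 members (RefSeq, GRCm38.p6, 250 bases before to 50 after each annotated start). Each was searched on both strands for the core of the antioxidant response element bound by Nfe2l1 and Nfe2l2 (TGACNNNGC), an interferon regulatory factor motif (GAAANNGAA), a STAT motif (TTCNNNGAA) and the CCAAT box. The first was found in 6 members (14.3%, against 14.0% of 27025 genes), namely Psmb5, Psmb6, Psmc6, Psmd12, Psmd9 and Psme4. The interferon regulatory factor motif was found in 7 (16.7%, against 9.76%): Psmb3, Psmb4, Psmc2, Psmd4, Psmd9, Psme1 and Psmg4. It was found in 0 of the 3 immunoproteasome catalytic genes and not in Psme2. The STAT motif was found in 3 (7.14%, against 9.55%), namely Psmb8, Psmd2 and Psmg1, and the CCAAT box in 15 (35.7%, against 41.1%). The 250 bases before the RefSeq start are shown for the Psmb5 and Psmb8 pair, whose transcripts stood level, with the antioxidant motif of the former and the STAT motif of the latter in capitals. That start lies 474 bases inside Psmb8 and 27 bases inside Psmb5 as GENCODE M21 bounds the genes, so the whole Psmb8 window falls within its annotated gene. A match describes letters, not a site in use.
Psmb5 (GRCm38.p6, chr14:54617996-54618245, minus strand): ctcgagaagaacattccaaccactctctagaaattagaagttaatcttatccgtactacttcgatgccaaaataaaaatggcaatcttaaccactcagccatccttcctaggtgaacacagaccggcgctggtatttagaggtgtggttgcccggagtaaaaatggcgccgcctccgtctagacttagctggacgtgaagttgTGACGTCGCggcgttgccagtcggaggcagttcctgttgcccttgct
Psmb8 (GRCm38.p6, chr17:34197945-34198194, plus strand): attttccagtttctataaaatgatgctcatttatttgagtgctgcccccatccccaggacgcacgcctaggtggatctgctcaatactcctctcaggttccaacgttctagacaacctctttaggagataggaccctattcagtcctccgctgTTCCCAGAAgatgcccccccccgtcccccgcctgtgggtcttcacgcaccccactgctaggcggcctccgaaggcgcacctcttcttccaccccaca

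In the annotation, 12 members start within 1000 bases of a protein-coding gene on the opposite strand. No share over all genes is given beside this count. In 11 of the 12 pairs the member was the higher in both libraries. The neighbours ranged from 0.045 TPM (Cutal, beside Psmd5) to 60.4 TPM (Dnajc2, beside Psmc2). The exception was Psmc2, at 45.1 ± 1.6 TPM against 60.4 ± 1.4 TPM for the chaperone gene Dnajc2, with starts 32 bases apart. Psmb1 stood at 107 TPM beside Tbp, the TATA-binding protein, at 38.5 TPM, and Psma2 at 154 TPM beside the mitochondrial ribosomal gene Mrpl32 at 38.9 TPM. Psmb9 and the peptide transporter gene Tap1 have starts 211 bases apart and overlap, so their reads there cannot be told apart unless strand was used in counting, which the sources used here do not state. Along this stretch of chromosome 17, which lies in the MHC region, the mean levels ran 47.2 TPM for Psmb9, 11.995 TPM for Tap1, 90.3 TPM for Psmb8 and 5.31 TPM for Tap2.

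Genes that work with the proteasome were read from lists chosen for this purpose. No gene of the partner, regulator, ubiquitin, MHC class I or interferon lists was called between the libraries. The 8 partners outside the symbol rule had a median of 57.7 TPM, and all reached 1 TPM in both. The highest was Pomp, the maturation factor of the core, at 120 ± 5.0 TPM, and the lowest was Akirin2, which brings proteasomes into the nucleus, at 22.1 ± 2.4 TPM. Sem1, the smallest lid subunit, stood at 66.8 ± 9.7 TPM, and the ubiquitin receptor Adrm1 at 31.4 ± 4.9 TPM. The deubiquitinase genes Uchl5 and Usp14 stood at 77.9 ± 7.2 and 72.5 ± 2.1 TPM.

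Regulators of proteasome transcription had a median of 16.3 TPM. Nfe2l2 stood at 48.9 ± 0.8 TPM and Nfe2l1, the main driver of the recovery of proteasome genes after inhibition, at 16.2 ± 0.3 TPM. Ddi2, the protease that activates Nfe2l1, was the lowest at 6.94 ± 1.03 TPM. Ubiquitin precursors and their enzymes stood at a median of 63.1 TPM. The ribosomal fusion gene Rps27a stood at 943 ± 17 TPM, and the activating enzyme Uba1 stood at 68.5 ± 4.0 TPM. Rps27a has processed copies in the genome, which makes its count uncertain.

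The 11 genes of MHC class I peptide loading, the pathway that immunoproteasomes feed, had a median of 105 TPM, and all reached 1 TPM in both libraries. B2m, the light chain of class I molecules, stood at 1632 ± 92 TPM and the chaperone Calr at 456 ± 25 TPM. H2-K1 stood at 179 ± 4.4 TPM, with the reservation that class I genes share reads. The peptide transporter genes were far lower, Tap1 at 11.995 ± 0.757 TPM and Tap2 at 5.31 ± 2.43 TPM. In the interferon gamma list, with a median of 14.3 TPM, 10 of 12 genes reached 1 TPM in both. The receptor gene Ifngr1 stood at 168 ± 16 TPM, Irf1 at 11.5 ± 1.3 TPM and Nlrc5, the activator of class I genes, at 6.71 ± 0.66 TPM. Ciita, the class II activator, had 0.08 and 0.13 TPM, and Socs1, a feedback inhibitor of the pathway, had 0.58 and 0.40 TPM.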

How the data were processed

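Total RNA-seq of 2 libraries was read from 1 gene and 1 transcript table per library. Per the deposited file lists, reads were aligned to mm10 and quantified against GENCODE M4; the column names are those RSEM writes, and the sources used here do not state the quantifier, aligner, strand or versions. The deposited expected counts are estimated reads, not normalized, in which reads that fit several genes are divided. The authors' TPM is scaled over all rows of a library. The deposited FPKM values were not used. The deposited score columns hold credibility bounds, whose level the sources used here do not state, and the posterior SD of the count. The deposited percent values give each transcript's part of its gene's TPM. TPM of short transcripts is imprecise, and abundant mitochondrial RNA lowers the TPM of other genes.

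Symbols, gene and transcript types and positions came from GENCODE M21 (GRCm38), matched for 98.0% of Ensembl rows. Members, groups, lists and the rule to name all members were chosen with earlier results of these data known. Paaf1 and Azu1 of the lists had no match. Group values are medians of mean TPM over members. Expected counts, rounded, were tested per gene for a shift between libraries (exact binomial, two-sided, against the ratio of TMM-scaled library sizes). Scaling and the filter, filterByExpr, came from edgeR 4.0.16 in R 4.3.3, and log2 ratios used a prior count of 2. The BCV was 0.209 and did not enter the test. The test was tried on simulated data with counting error only, which do not check its p-values at the spread of these libraries. Reads differed between the libraries by more than sampling noise (chi-square of 41.3 per gene). A count of 0 allows 3 reads; intervals and limits cover counting error only, because PCR copies are not independent. Identity came from global alignment of coding sequences (GENCODE M21 transcripts with a start and a stop codon and the largest share; Biopython 1.88), in place of the planned protein alignment. Alternatives were the posterior mean TPM, protein-coding transcripts only, rescaled TPM, DESeq2 size factors (1.42.0), other filters and pseudocounts, and each library alone. Reads per longest protein-coding transcript was added after seeing the data. Some listed genes are not reported here.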

Additional observations from a re-analysis of the deposited data

How the results depend on the processing

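The sign of no mean log2 ratio of the 3 catalytic pairs reversed, but the order of some genes did: with protein-coding transcripts only, Psma3 became the lowest alpha gene, Psmd14 fell below Psmd7 and Psmb7, Psmb4 fell below Psmb2 and Psmb1 in mean, and Psmd1 was the higher in replicate 2. Rescaling TPM without mitochondrial genes, small RNAs, spike-ins and Gm42418 raised every group median, to 347 TPM for the alpha ring, 239 for structural and 189 for constitutive catalytic beta genes, 103 for the immunoproteasome, 120.0 for ATPases, 93.5 for other base genes, 125 for the lid, 119 for activators, 62.4 for chaperones, 231 for MHC class I loading, 31.3 for the interferon list, 126 for partners, 35.7 for regulators and 138 for ubiquitin genes; ratios are unchanged by construction. With protein-coding transcripts only, the medians were 46.5 TPM for ATPases, 29.1 for other base genes, 101 for structural beta genes, 26.4 for chaperones, 50.9 for activators, 40.1 for the immunoproteasome, 13.8 for regulators and 49.7 for ubiquitin genes, and the Psmb9 to Psmb6 log2 ratio was -0.40. With reads per longest protein-coding transcript, chosen after seeing the data, that ratio was -1.26 and the immunoproteasome share 36.8%, and Psmb9 fell below Psmb10. Either library alone gave regulators a median of 16.2 to 16.9 TPM. Between the libraries, 31 members passed at the adjusted p alone, as did 59.0% of all genes tested. Without a filter on low counts, 0 members and 3382 of all 19676 genes were called. With counts divided by 4, 0 members and 521 of all 14304 genes were called. The posterior mean moved the leading transcript's share beyond its SD in 6 members, by 9.52 percentage points at most (Psmd13). No paired comparison of groups was possible because there is only 1 group. The depth of these libraries limits Psmb11 to the values given for a count of 0, and 2 libraries limit the precision of every comparison of levels.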
